A study of Mus musculus with 8 samples.

Results

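Transcripts of 9 genes of inflammatory and receptor-driven cell death were followed in mouse embryonic fibroblasts (MEFs), the mesenchymal cells that grow out of a dissociated embryo. They were chosen by name: Casp1, Casp4, Casp12, Gsdmd, Gsdme, Fas, Tnfsf10, Daxx and Xaf1, 9 of the 24972 genes in the deposited table. All 9 names were found. The 8 libraries came from primary, untreated MEFs of embryonic day 14 after 2 passages, with 2 libraries for each of 4 genotypes. WT carried neither mutation, Tfam+/- had lost 1 allele of the mitochondrial DNA-packaging factor Tfam, Zbp1-/- lacked the nucleic acid sensor Zbp1, and Tfam+/-Zbp1-/- carried both changes. Neither the strain nor the embryos behind each library are stated in the labels, so p-values measure only the spread between these libraries. RNA was taken from whole cultures, in which fewer cells of a type and less RNA per cell cannot be told apart.

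Inflammatory caspases are proteases that are switched on by sensors of microbes and of cell damage. Casp1 is recruited to inflammasomes and matures interleukins, while Casp4 binds bacterial lipopolysaccharide in the cytosol. Both cleave Gsdmd, whose freed amino-terminal part forms pores in the plasma membrane, the step that kills the cell in pyroptosis. Gsdme is a related pore former of the same family. Death receptors such as Fas instead start apoptosis from the cell surface once a ligand binds, and Tnfsf10 (TRAIL) is such a ligand. Fas itself is the receptor, and its ligand is encoded by Fasl. Daxx is a nuclear protein first described as a partner of Fas and now best known as a histone chaperone of nuclear bodies. Xaf1 binds the caspase inhibitor Xiap and is a known interferon-stimulated gene, as Casp4 is. In many cell types Zbp1 can itself start cell death and inflammatory signalling.

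The deposited values are normalized counts, and the libraries totalled 16752835 to 18303036. Tfam transcripts stood at 278, 365, 424 and 375 in the 4 libraries with a Tfam+/- allele and at 471 to 675 in the other 4. Zbp1 stood at 1.03 to 7.34 in WT and Zbp1-/-, too low in WT for the Zbp1-/- label to be checked, and at 64.6 and 69.8 in Tfam+/- against 0.862 and 2.69 in Tfam+/-Zbp1-/-. Of 10 fibroblast marker genes none was at 0, with a summed level of 500519 to 737087 per library. Of 12 leukocyte markers none was at 0 either, and the libraries' sums were 5202 and 5239 (WT), 6105 and 6436 (Tfam+/-), 3048 and 3381 (Zbp1-/-) and 2689 and 2700 (Tfam+/-Zbp1-/-). The defining leukocyte gene Ptprc stood at 49.9 to 169. The replicates' correlation was 0.992 for WT and for Tfam+/-Zbp1-/- but 0.973 for Tfam+/- and 0.975 for Zbp1-/-. From an earlier analysis of these data, Tfam+/- replicate 1 and Zbp1-/- replicate 2 were known to stand apart together. Results are therefore given from all 8 libraries and from the other 6.

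Levels were first compared per kilobase of exon. Averaged over the 8 libraries, Casp12 was highest at 287 normalized counts per kilobase, followed by Fas at 174, Daxx at 162 and Gsdmd at 133. Xaf1 came next at 46.1, then Casp4 at 28.5, Casp1 at 11.7 and Gsdme at 11.1, and Tnfsf10 was lowest at 0.267. Fas, with libraries from 132 to 216, and Daxx, from 125 to 239.9, overlapped over most of their ranges and were not separated. Casp1, from 6.80 to 18.6, and Gsdme, from 9.23 to 13.6, were not separated either, and per kilobase of its longest transcript Gsdme lay above Casp1, at 18.3. The order also depended on the genotype and library. In Tfam+/- replicate 1 Casp12 stood at 159.7 per kilobase, below Daxx at 239.9 and Gsdmd. Xaf1 ran from 14.8 to 119 per kilobase over the libraries. It stood at 16.7 per kilobase in WT, below Casp4, and at 116 in Tfam+/-.

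**Figure D1:**
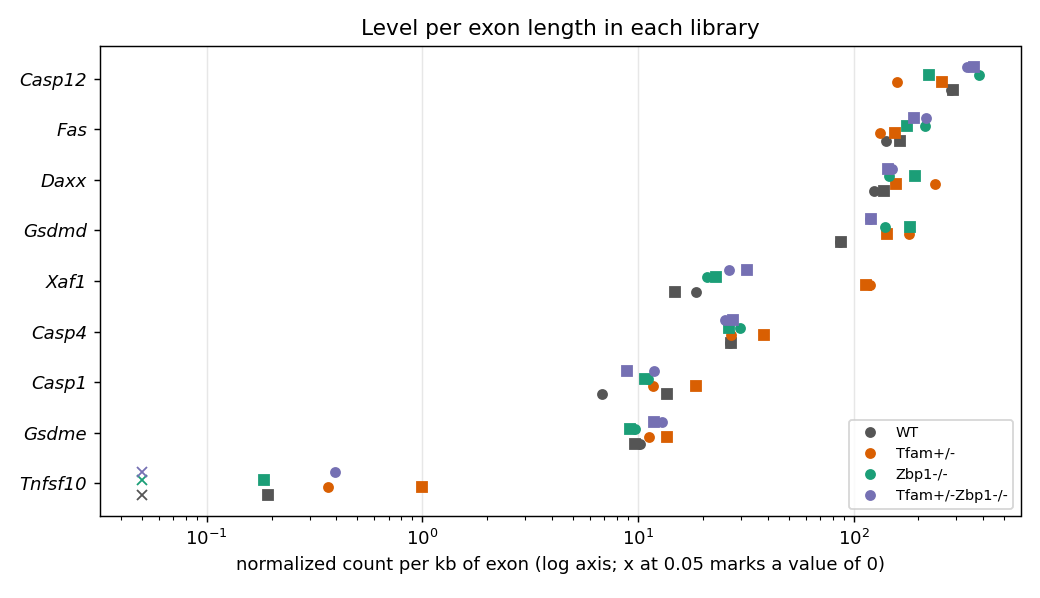
Normalized counts per kilobase of exon (log axis) for the 9 genes, 1 point per library (circles replicate 1, squares replicate 2), coloured by genotype; values of 0 are drawn as crosses at the left end of the axis. Casp12, Fas, Daxx and Gsdmd lay above 86 per kilobase in all 8 libraries, Tnfsf10 lay below 1, and both Tfam+/- points of Xaf1 lay apart from its other 6.

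Xaf1 (chromosome 11, 72301461 to 72313733, plus strand, mm10) was the tested member with the largest log2 change. It had normalized counts of 48.4 and 38.5 (WT), 309 and 295 (Tfam+/-), 54.1 and 59.9 (Zbp1-/-) and 69.0 and 83.6 (Tfam+/-Zbp1-/-). Both Tfam+/- libraries stood far above the other 6, and no library overlapped between genotypes. The WT mean was 43.4 ± 7.00 (SD, n = 2) and the Tfam+/- mean 302 ± 9.98, a ratio of 6.96.

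On the scale of log2(normalized count + 1), the rise of Xaf1 in Tfam+/- was 2.78 ± 0.18 (SE), with a 95% interval of 2.35 to 3.21 (limma, adjusted p 0.0023). It was called, meaning an adjusted p under 0.05 over all genes tested, in every alternative fit that was run. These gave values of 2.62 to 2.94, and 2.75 in the other 6 libraries (adjusted p 8.2e-08). In Tfam+/-Zbp1-/- Xaf1 was lower than in Tfam+/- by a log2 change of -1.98 ± 0.18 (limma, adjusted p 0.0036), and its mean was 0.252 of that in Tfam+/-. That call was lost without replicate 1 of Tfam+/-Zbp1-/- (-1.84) and without replicate 2 (-2.12). Each of these fits leaves 1 library in that genotype and called far fewer genes of any kind in this comparison. The other 6 libraries gave -1.95. Leukocyte markers were also lower in Tfam+/-Zbp1-/- than in Tfam+/-, with a median log2 change of -1.19 and 9 of 12 genes called lower. For all genes tested in this comparison the median was 0.14 and 2.32% were called lower. Among the markers of other cell types, endothelial Emcn (-2.003) and epithelial Krt18 (-1.64) and Krt8 (-1.19) were called lower there, and fibroblast Lum (1.80) and Col3a1 (0.59) higher. These lists were mixed: 7 of 10 fibroblast, 1 of 3 endothelial and 0 of 3 epithelial genes tested had changes above 0. Endothelial Tek was higher (89.0 and 89.4 normalized counts, against 25.1 and 49.5). Fibroblast Thy1 was lower (6371 and 6397, against 12177 and 8921), and neither was called. Pecam1, Cdh5 and Cldn5 (endothelial) and Epcam, Cdh1 and Esrp1 (epithelial) stood at 7.48 or less in every library. From WT to Tfam+/- the median change of the leukocyte markers was 0.39, with 0 of 12 called by limma and 7 at an unadjusted p under 0.05. Under that p were 1159 of all 13267 genes. The part of leukocytes or of any other cell type in the Xaf1 results was not tested.

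The effect of losing 1 Tfam allele on Xaf1 depended on the Zbp1 genotype. From WT to Tfam+/- the change was 2.78, and from Zbp1-/- to Tfam+/-Zbp1-/- it was 0.41 ± 0.18, not past the threshold (limma, adjusted p 0.44; interval -0.03 to 0.84). The difference between these changes, here called the interaction, was -2.37 ± 0.26 (limma, adjusted p 0.021). Its call did not hold with 1 library fewer in 6 of 8 cases, with values from -2.53 to -2.21. Each such fit leaves 1 library in a genotype. In those cases, except without Tfam+/- replicate 1, no gene of any kind was called for the interaction. In the other 6 libraries it was -2.27 (adjusted p 4.2e-05). The interaction of the leukocyte markers had a median of -0.67, with 11 of 12 below 0, 0 of 12 called by limma and 7 at an unadjusted p under 0.05. Under that p were 2123 of all 13267 genes. Xaf1 in Tfam+/-Zbp1-/- remained above WT by 0.80 ± 0.18, an interval of 0.37 to 1.24 that did not pass the adjusted threshold with all 8 libraries (limma, adjusted p 0.10) and passed it in the other 6 (adjusted p 0.0016). In Zbp1-/- against WT it was 0.39 ± 0.18 (limma, adjusted p 0.28), and 0.32 in the other 6 libraries (adjusted p 0.27).

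Over the 8 libraries the tested genes whose log2 values followed those of Xaf1 most closely were Usp18 (Pearson r = 0.999), which removes ISG15 from proteins, and Ifit3b (r = 0.99), an interferon-induced gene with a near-identical neighbour, Ifit3, whose reads the counting could share. These correlations describe the same 8 libraries and have no p. The promoters of Xaf1 and Ifit3b are shown because these genes had the most similar profiles for which the RefSeq promoter table (GRCm38.p6, the mm10 assembly) has an entry. Each is the 250 bases before the transcript start given there, 5′ to 3′ on the gene's strand. For Xaf1 that start lies inside the annotated gene, which begins at 72301461, so most of the Xaf1 window lies within the gene. Capitals mark matches to the core of the interferon-stimulated response element, GAAANNGAAA, or to the shorter motif AANNGAAA that it contains, on either strand.
Xaf1 (chr11:72301379-72301628, + strand): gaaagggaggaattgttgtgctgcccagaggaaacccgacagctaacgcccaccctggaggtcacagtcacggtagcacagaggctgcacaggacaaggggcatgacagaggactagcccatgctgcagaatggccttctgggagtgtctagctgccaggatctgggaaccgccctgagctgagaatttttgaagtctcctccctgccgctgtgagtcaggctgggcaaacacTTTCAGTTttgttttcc
Ifit3b (chr19:34607707-34607956, + strand): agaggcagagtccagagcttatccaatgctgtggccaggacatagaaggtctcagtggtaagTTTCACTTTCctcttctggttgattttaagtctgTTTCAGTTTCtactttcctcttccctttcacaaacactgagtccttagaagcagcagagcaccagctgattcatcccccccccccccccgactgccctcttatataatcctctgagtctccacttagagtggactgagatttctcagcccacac

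In Ifit3b the capitals are 2 matches to the full core, at -188 to -179 and -154 to -145 from the start and on the opposite strand, each of which also holds the shorter motif. In Xaf1 they are 1 match to the shorter motif, TTTCAGTT, at -17 to -10 on the opposite strand, and the full core was not in this window. That match lies inside the annotated gene. Bases of Xaf1 before the window, which starts at 72301379, were not searched. The full core was in 978 of 32851 RefSeq promoters of this length (2.98%) and in 0 of the 11 promoters found for 8 of the 9 genes. The shorter motif was in 6999 (21.3%) and in 6 of the 11, those of Xaf1, Casp12, Fas, Tnfsf10 and the pair of Casp4. The interferon-gamma activated sequence TTCNNNGAA was in 2306 (7.02%) and in 2 of the 11, those of Casp12, at -102 and -36, and Fas, at -93, with the letters TTCTGGGAA each time. A match is a description of the letters only.

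**Figure D2:**
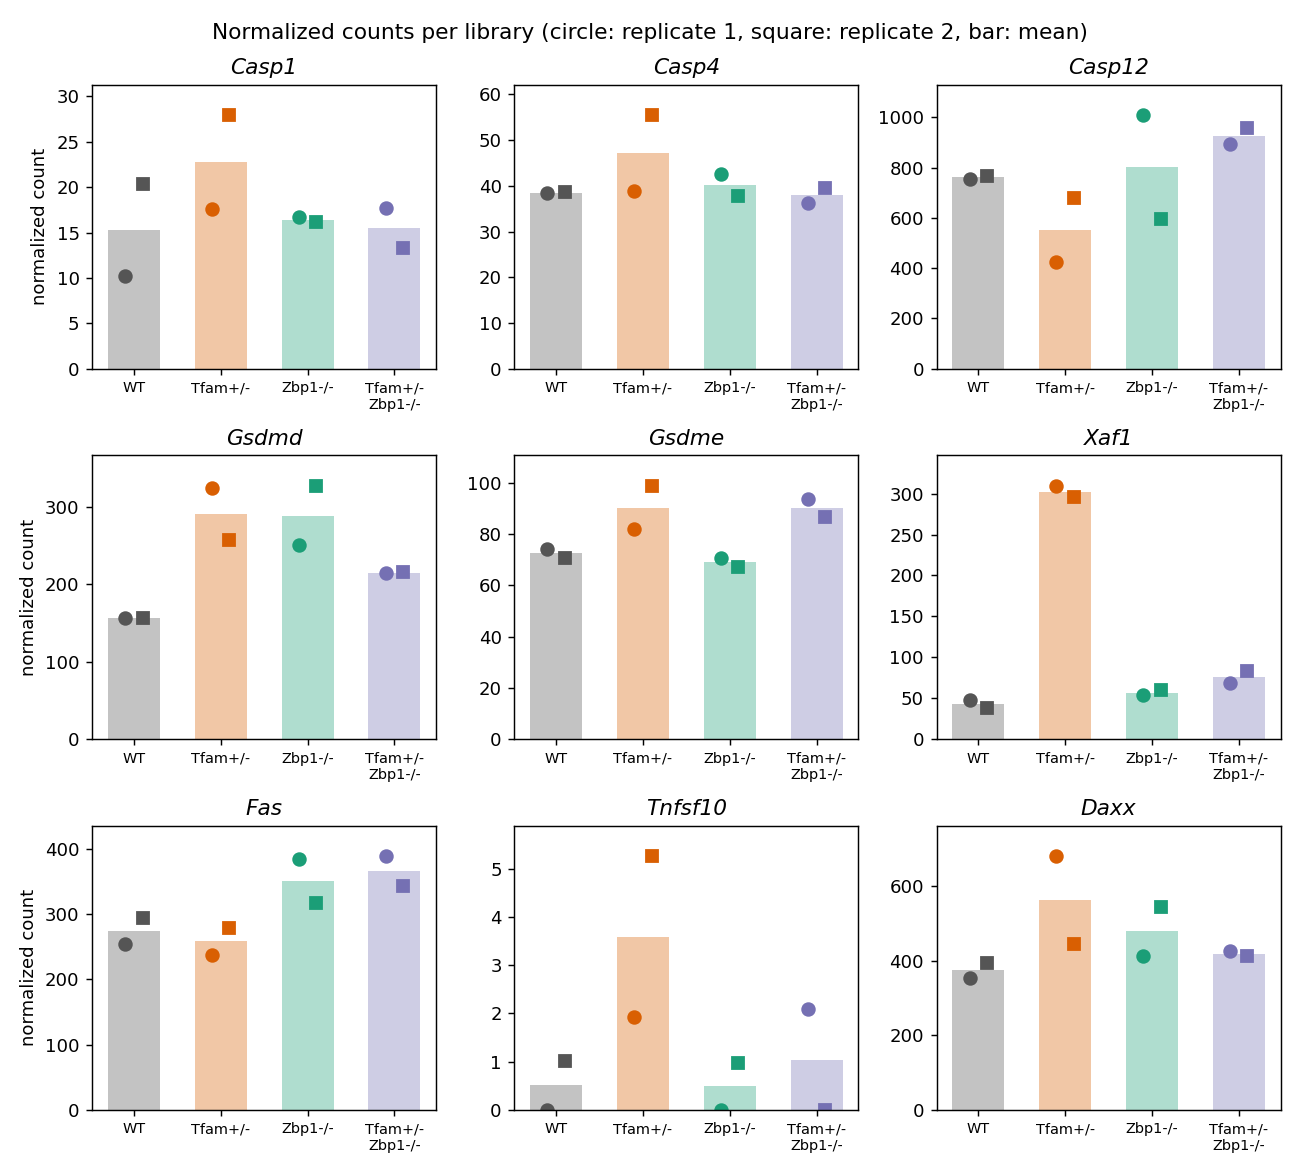
Normalized counts of each of the 9 genes by genotype, on a linear axis from 0; circles are replicate 1, squares replicate 2 and bars the mean of both. Xaf1 stood at 309 and 295 in Tfam+/- and at 83.6 or less elsewhere, Gsdmd was lowest in WT at 156 and 157, and Casp12 and Daxx had widely spaced replicates in Tfam+/- and Zbp1-/-.

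The 3 inflammatory caspase genes lie side by side on the plus strand of chromosome 9 (mm10), Casp1 at 5298517 to 5307281, Casp4 at 5308849 to 5336791 and Casp12 at 5345442 to 5373034. No test of any of them passed the threshold with all 8 libraries.

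Casp1 had normalized counts of 10.2 and 20.4 (WT), 17.6 and 27.9 (Tfam+/-), 16.7 and 16.2 (Zbp1-/-) and 17.8 and 13.3 (Tfam+/-Zbp1-/-). WT held both the lowest library and the next to highest, and overlapped with the other genotypes. Tfam+/- differed from WT by a log2 change of 0.59 ± 0.40, with an interval of -0.36 to 1.53 (limma, adjusted p 0.56), so at this level neither an unchanged transcript nor a doubling on this scale lay outside the interval. The interaction was -0.67 ± 0.56 (limma, adjusted p 0.45).

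Casp4 was even across libraries, with normalized counts of 38.5 and 38.6 (WT), 38.9 and 55.4 (Tfam+/-), 42.6 and 37.8 (Zbp1-/-) and 36.2 and 39.6 (Tfam+/-Zbp1-/-). A single library, Tfam+/- replicate 2, stood above the rest, and the other 7 spanned 36.2 to 42.6. Between Tfam+/- and WT the log2 change was 0.26 ± 0.22 (limma, adjusted p 0.58; interval -0.27 to 0.80). It was 0.51 in the other 6 libraries, where that high library stands alone for its genotype, and was not called there either (adjusted p 0.22).

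Casp12, which is linked to the endoplasmic reticulum in mouse cells, had normalized counts of 754 and 768 (WT), 423 and 680 (Tfam+/-), 1008 and 595 (Zbp1-/-) and 892 and 956 (Tfam+/-Zbp1-/-). Replicates lay close together in WT and Tfam+/-Zbp1-/- and far apart in Tfam+/- and Zbp1-/-, where the low library was each time one of the pair that stood apart. The 2 Tfam+/-Zbp1-/- libraries lay above both WT and both Tfam+/- libraries. Against Tfam+/- the log2 difference was 0.78 ± 0.29, with an interval of 0.08 to 1.48, and did not pass the adjusted threshold (limma, adjusted p 0.20).

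In the other 6 libraries Casp12 was called higher in Tfam+/-Zbp1-/- than in Tfam+/-, at 0.44 ± 0.06 (limma, adjusted p 2.8e-05), and higher than in WT, at 0.28 (adjusted p 0.00038). There it was also called higher in Zbp1-/- than in WT, at 0.40 (adjusted p 0.00011), where all 8 libraries gave 0.03 ± 0.29 (limma, adjusted p 0.96). In that fit Tfam+/- and Zbp1-/- have 1 library each, whose spread is taken to be that of the WT and Tfam+/-Zbp1-/- replicates. Each p-value from the 6 libraries rests on that assumption.

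Gsdmd (chromosome 15, 75862144 to 75867408, plus strand), the executor of pyroptosis, was higher in every mutant library than in either WT library, a ranking not counted over all genes. It had normalized counts of 156 and 157 (WT), 325 and 257 (Tfam+/-), 249.99 and 327 (Zbp1-/-) and 214 and 216 (Tfam+/-Zbp1-/-). Each single mutant stood at about the same mean, 291 ± 48.0 (SD, n = 2) in Tfam+/- and 288 ± 54.3 in Zbp1-/-, 1.86 and 1.85 times WT, and both libraries of Tfam+/-Zbp1-/-, at 1.38 times WT, lay below all 4 libraries of the single mutants.

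For Gsdmd the log2 change was 0.88 ± 0.18 in Tfam+/- (interval 0.46 to 1.30) and 0.87 ± 0.18 in Zbp1-/- (interval 0.45 to 1.29), each against WT. Neither passed the adjusted threshold with all 8 libraries (limma, adjusted p 0.13 and 0.083). Both were called in the other 6, at 0.71 (adjusted p 0.00045) and 0.68 (adjusted p 0.00035). The change in Tfam+/-Zbp1-/- against WT was 0.46 ± 0.18 (limma, adjusted p 0.35), and in the other 6 libraries it had the same size and was called (adjusted p 0.0012). The interaction was -1.29 ± 0.25, with an interval of -1.89 to -0.70 (limma, adjusted p 0.092). It was -0.93 ± 0.17 and called in the other 6 libraries (limma, adjusted p 0.00075). Leaving out 1 library at a time kept it between -1.48 and -1.10. The 2 tested genes whose profiles were most like that of Gsdmd were Crabp1 (r = 0.997) and Neurl1a (r = 0.99), over the 8 libraries.

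Gsdme (chromosome 6, 50207401 to 50263857, minus strand) had normalized counts of 74.3 and 70.5 (WT), 81.8 and 98.7 (Tfam+/-), 70.7 and 67.1 (Zbp1-/-) and 93.7 and 86.5 (Tfam+/-Zbp1-/-). All 4 libraries with a Tfam+/- allele stood above the 4 without one, a ranking whose share among all genes was not counted. On the log2 scale Tfam+/- differed from WT by 0.31 ± 0.16 (limma, adjusted p 0.56) and Tfam+/-Zbp1-/- from Zbp1-/- by 0.38 ± 0.16 (adjusted p 0.41); neither was called in the other 6 libraries (adjusted p 0.14 and 0.22). The interaction was 0.07 ± 0.23, with an interval of -0.47 to 0.62 (limma, adjusted p 0.84). Gsdme overlaps Mpp6 on the opposite strand by 10052 bases, and since the use of strand in counting is not given here, reads of the overlap cannot be assigned to either. Mpp6 had a log2 change of 0.01 in Tfam+/- against WT and 0.63 in Tfam+/-Zbp1-/- against Zbp1-/-, neither called.

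Fas (chromosome 19, 34290647 to 34327775, plus strand), the death receptor, ranked by Zbp1 rather than Tfam genotype with the authors' scaling. It had normalized counts of 254 and 294 (WT), 238 and 279 (Tfam+/-), 385 and 317 (Zbp1-/-) and 388 and 343 (Tfam+/-Zbp1-/-). All 4 libraries without Zbp1 stood above the 4 with it, and WT and Tfam+/- overlapped. The closest values across this divide were 294 in WT replicate 2 and 317 in Zbp1-/- replicate 2. The share of all genes with this ranking was not counted. Against WT the log2 difference was 0.35 ± 0.16 for Zbp1-/- (limma, adjusted p 0.28) and 0.42 ± 0.16 for Tfam+/-Zbp1-/- (adjusted p 0.35). Between Tfam+/-Zbp1-/- and Tfam+/- it was 0.50 ± 0.16 (adjusted p 0.14).

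Those 3 differences of Fas did not pass the threshold with all 8 libraries, and passed it in the other 6, at 0.49 (limma, adjusted p 0.0026), 0.42 (adjusted p 0.0015) and 0.39 (adjusted p 0.010). In the same 3 comparisons the median of all genes tested was 0.11, 0.12 and 0.14 with the authors' scaling. Trimmed-mean (TMM) rescaling brought these medians to -0.0039, 0.0062 and 0.02 and the values for Fas to 0.24, 0.30 and 0.38. No fit of 6 libraries was rescaled. Between Tfam+/- and WT the Fas difference was -0.08 ± 0.16, with an interval of -0.47 to 0.30 (limma, adjusted p 0.78).

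Tnfsf10 (chromosome 3, 27317077 to 27339665, plus strand), the TRAIL ligand, was near absence. It was listed at 0 in 1 library each of WT, Zbp1-/- and Tfam+/-Zbp1-/-, where the other library had 1.01, 0.968 and 2.08 normalized counts. Tfam+/- had 1.92 and 5.25. Its mean lay under the minimum of 10 normalized counts for testing, so it is the 1 member that was not tested. Without that minimum the log2 difference in Tfam+/- against WT was 1.59 ± 0.72 and was not called (limma, adjusted p 0.62).

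Daxx (chromosome 17, 33909404 to 33915590, plus strand) had normalized counts of 354 and 394 (WT), 680.2 and 446 (Tfam+/-), 414 and 546 (Zbp1-/-) and 426 and 412 (Tfam+/-Zbp1-/-). The highest 2 values were those of Tfam+/- replicate 1 and Zbp1-/- replicate 2, and both WT libraries were below the other 6. The log2 difference in Tfam+/- against WT was 0.56 ± 0.23, with an interval of 0.02 to 1.09 (limma, adjusted p 0.55), and was 0.25 in the other 6 libraries (adjusted p 0.070). The interaction was -0.74 ± 0.32 with all 8 libraries (limma, adjusted p 0.32) and -0.24 with 6 (adjusted p 0.23).

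Across comparisons, Xaf1 was the 1 member called with all 8 libraries. In Tfam+/- against WT, 1 of the 8 members tested was called higher, where 0.731% of the 13267 genes tested were called. In Tfam+/-Zbp1-/- against Tfam+/- it was 1 of 8, called lower, against 5.64% of all genes, and in the interaction 1 of 8, below 0, against 0.663%. In Zbp1-/- against WT, Tfam+/-Zbp1-/- against WT and Tfam+/-Zbp1-/- against Zbp1-/- limma called 0 of 8 members, where 1.06%, 1.38% and 0.415% of all genes were called. At an unadjusted p under 0.05 these 3 comparisons had 1 member (Gsdmd), 3 members (Gsdmd, Fas and Xaf1) and 0 members. Under that p they had 2619, 1674 and 1626 of all 13267 genes.

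The median log2 change of the 8 members was 0.43 in Tfam+/- against WT, 0.26 in Zbp1-/- against WT and 0.29 in Tfam+/-Zbp1-/- against WT, beside -0.01, 0.11 and 0.12 for all genes tested. It was -0.34 in Tfam+/-Zbp1-/- against Tfam+/- (all genes 0.14), -0.01 against Zbp1-/- (all genes 0.02) and -0.51 for the interaction (all genes near 0). The comparisons share libraries and are not independent of each other.

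The other 6 libraries called more members and far more genes. Members called were 2 of 8 in Tfam+/- against WT (Gsdmd and Xaf1), where 15.4% of all genes were called, and 2 of 8 in the interaction (the same pair), against 19.1%. They were 3 of 8 in Zbp1-/- against WT (Casp12, Gsdmd and Fas) against 34.3%, and 4 of 8 in Tfam+/-Zbp1-/- against WT (these 3 and Xaf1) against 44.8%. Against Tfam+/-, 3 of 8 were called in Tfam+/-Zbp1-/- (Casp12 and Fas higher, Xaf1 lower), where 43.6% of all genes were called. Against Zbp1-/- it was 0 of 8, where 23.4% were called, and no member had an adjusted p under 0.12 in that fit. In the 3 comparisons with the most calls the share of members called was close to that of all genes.

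**Figure D3:**
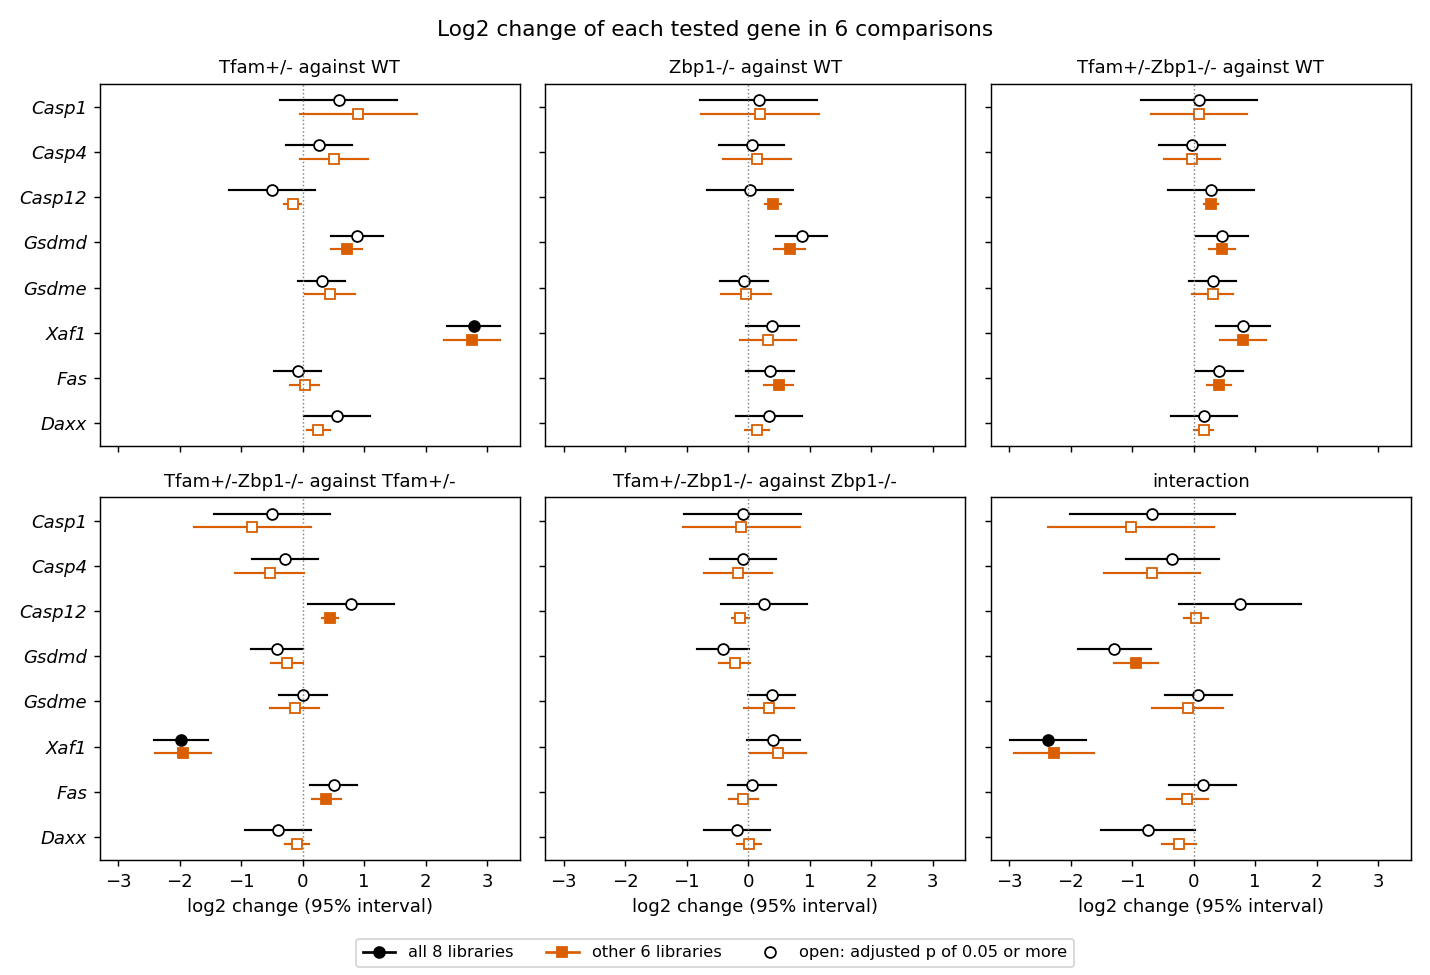
Log2 difference of the 8 tested genes in each of the 6 comparisons, with 95% intervals from limma; black circles use all 8 libraries, orange squares the other 6, and filled symbols have an adjusted p under 0.05. Xaf1 has the farthest points from 0, at 2.78, -1.98 and -2.37, and Gsdmd, Casp12 and Fas are filled only in fits of the other 6 libraries.

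The pair of libraries that stood apart moved the members unequally. A term shared by Tfam+/- replicate 1 and Zbp1-/- replicate 2 was past the threshold in 8669 of 13267 genes (65.3%). These 2 libraries were picked because they stood apart in these same data. The p-values of the term therefore describe that shift and are no test of an independent factor. Across 12733 genes with a known transcript the size of the term had r = 0.78 with the GC content of the transcript and r = -0.33 with log2 transcript length. Both r values are taken over genes, and genes are no independent replicates. Among the members the shift was lowest for Casp12, at -0.72 (limma, adjusted p 1.4e-09) and 37.3% GC, and was -0.26 for Fas (adjusted p 0.020) at 43.4% GC. It was highest for Daxx, at 0.50 (adjusted p 9.3e-06) and 56.3% GC, and was 0.36 for Gsdmd (adjusted p 0.0020) at 54.4% GC. Casp1, Casp4, Gsdme and Xaf1, with GC contents of 41.2% to 47.4%, were not past the threshold, and Xaf1 was shifted by 0.11 (adjusted p 0.59). The cause of the shift was not tested, and the labels name no batch. With that term in the fit, 3 of 8 members were called in Tfam+/- against WT (Daxx at 0.31, Gsdmd at 0.70 and Xaf1), where 15.6% of all genes were called. It gave 3 of 8 in Zbp1-/- and 4 of 8 in Tfam+/-Zbp1-/-, each against WT, where 35.6% and 42.5% of all genes were called. Between Tfam+/-Zbp1-/- and Tfam+/- it gave 3 of 8 against 45.6%, between Tfam+/-Zbp1-/- and Zbp1-/- 0 of 8 against 23.8%, and for the interaction 2 of 8 against 16.9%.

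**Figure D4:**
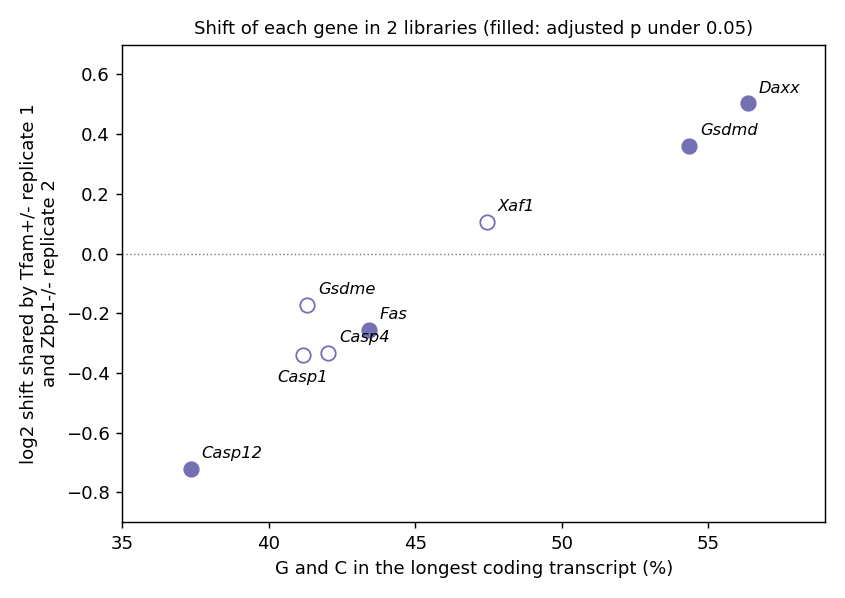
Log2 shift shared by Tfam+/- replicate 1 and Zbp1-/- replicate 2 (vertical axis) against the GC content of the transcript in percent (horizontal axis) for the 8 tested genes; filled points have an adjusted p under 0.05. The points run from Casp12, at 37.3% GC and -0.72, to Daxx, at 56.3% GC and 0.50.

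The other genes of these pathways were read from 5 lists. Of 26 further inflammasome and pyroptosis genes only 10 were expressed enough to test, and Gsdma, Gsdma3, Gsdmc, Gsdmc3, Mefv and Nlrp6 were listed at 0 in all 8 libraries. The adaptor Pycard, which joins sensors to Casp1, stood at 31.9 to 59.97 normalized counts, and Il1b, a substrate of Casp1, at 5.67 or less. Calls were made in 1 of the 6 comparisons, Tfam+/-Zbp1-/- against Tfam+/-, with 2 of 10 genes called. It also called the most genes of any kind, 5.64% against 0.415% to 1.38% in the other 5. In Tfam+/-Zbp1-/- the sensor gene Nlrp3 was lower than in Tfam+/- by a log2 change of -1.72 ± 0.35 (limma, adjusted p 0.038). Serpinb1a, an inhibitor of inflammatory caspases, was higher by 0.88 ± 0.14 (adjusted p 0.017). Nlrp3 had 17.0 and 18.7 normalized counts in Tfam+/- and 3.75 and 5.84 in Tfam+/-Zbp1-/-. Leukocytes are known to express it and their markers also fell in this comparison, but their part in the Nlrp3 change was not tested. The list's median was -0.41 there, beside 0.14 for all genes, and the other 5 comparisons had 1 to 4 genes at an unadjusted p under 0.05. Under that p those comparisons had 1159 to 2619 of all 13267 genes.

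Death receptor signalling had 20 of 25 listed genes tested, and calls again only in Tfam+/-Zbp1-/- against Tfam+/-. There 3 of 20 were called, where 5.64% of all genes were, against 0.415% to 1.38% of all genes in the other 5 comparisons. Tnfrsf26 was lower at -1.92 ± 0.33 (limma, adjusted p 0.023), as was the feedback inhibitor Tnfaip3 at -0.73 ± 0.15 (adjusted p 0.039). The TNF receptor Tnfrsf1b was higher at 0.52 ± 0.11 (limma, adjusted p 0.044). The call of Tnfrsf1b was lost on TMM rescaling (0.40, adjusted p 0.097). The list's median was -0.01, beside 0.14 for all genes, and 2 to 5 genes were at an unadjusted p under 0.05 in the other 5 comparisons. Under that p those comparisons had 1159 to 2619 of all 13267 genes. The partners of the members in this route differed in level: Fasl stood at 1.10 normalized counts or less, while the TRAIL receptor Tnfrsf10b stood at 1280 to 1772 and the initiator caspase Casp8 at 766 to 912.

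Of 18 apoptotic caspases and inhibitors of apoptosis, 17 were tested and limma called 0 in each of the 6 comparisons. Of all genes, 0.415% to 5.64% were called in them. The list had 0 to 2 genes at an unadjusted p under 0.05, where 1159 to 2756 of all 13267 genes were, and medians of -0.11 to 0.22. Xiap, the inhibitor that Xaf1 binds, had normalized counts of 1831 and 1913 (WT), 714 and 1628 (Tfam+/-), 1995 and 815 (Zbp1-/-) and 1966 and 1935 (Tfam+/-Zbp1-/-). Its 2 low values were those of the pair of libraries that stood apart. In the BCL2 family, 13 of 16 genes were tested and 1 was called, Bcl2a1b. It was lower in Tfam+/-Zbp1-/- than in Tfam+/- at -1.38 ± 0.26 (limma, adjusted p 0.031), a comparison that called 5.64% of all genes. Bcl2a1b has near-identical copies in the mouse genome, so its counts are uncertain.

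Of 9 partners of Daxx, all tested, Sp100 alone was called with all 8 libraries. Sp100 encodes a nuclear body protein and is a known interferon-stimulated gene. It had normalized counts of 22.7 and 18.9 (WT), 108 and 84.3 (Tfam+/-), 26.3 and 34.0 (Zbp1-/-) and 15.2 and 23.9 (Tfam+/-Zbp1-/-). As with Xaf1, both Tfam+/- libraries stood above the other 6. Sp100 has related copies nearby in the mouse genome, so its counts are uncertain. Its log2 change from WT to Tfam+/- was 2.15 ± 0.29 (limma, adjusted p 0.034), -2.27 ± 0.29 in Tfam+/-Zbp1-/- against Tfam+/- (adjusted p 0.0081) and -2.77 ± 0.41 for the interaction (adjusted p 0.049). Of all genes, 0.731%, 5.64% and 0.663% were called in these comparisons, in that order.

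The calls named from these lists in Tfam+/-Zbp1-/- against Tfam+/- (Nlrp3, Serpinb1a, Tnfrsf26, Tnfaip3, Tnfrsf1b, Bcl2a1b and Sp100) were each lost without Tfam+/-Zbp1-/- replicate 1 and without replicate 2. All of them but Sp100 were also lost without either WT library and with the replicate number as a block, and all but Sp100 and Serpinb1a without either Tfam+/- library. The block called 2.65% of all genes in this comparison, against 5.64% without it. Nlrp3 was lost without any 1 of the 8 libraries. The call of Sp100 in Tfam+/- against WT was lost without either WT, Tfam+/- or Tfam+/-Zbp1-/- library. It was also lost with no minimum count, with only the genotypes compared and with the block. The call of its interaction was lost without any 1 library, with a pseudocount of 0.1, with no minimum count and with the block. With only the genotypes compared, Nlrp3, Serpinb1a, Tnfrsf1b, Tnfaip3 and Bcl2a1b lost their calls in Tfam+/-Zbp1-/- against Tfam+/-. Tnfrsf1b and Tnfaip3 also lost theirs with no minimum count, and Tnfrsf1b without a trended prior. Each fit without 1 library leaves 1 library in a genotype, and most of them called fewer genes of any kind than all 8 libraries did. Calls from the other 6 libraries were more numerous, as they were for all genes: in Tfam+/-Zbp1-/- against Tfam+/- they numbered 3 of 10 inflammasome, 12 of 20 death receptor, 8 of 17 apoptotic caspase, 9 of 13 BCL2 family and 4 of 9 Daxx partner genes, where 43.6% of all genes were called.

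Across the 8 libraries Gsdmd and Daxx had a Pearson r of 0.86 on the log2 scale, Casp12 and Fas 0.78, Casp1 and Casp4 0.64, and Casp12 and Daxx -0.83. The pair of libraries that stood apart enters each of these values, and Gsdmd, Daxx, Casp12 and Fas are the members past the threshold for the shift in that pair. The tested genes closest in profile to Casp12 were Tmem167b (r = 0.996) and Sar1a (r = 0.995), and those closest to Daxx were Tomm40 (r = 0.99) and Rplp2-ps1 (r = 0.99). For Fas they were Atxn10 (r = 0.98) and Ncoa6 (r = 0.98), and for Gsdme Pnp (r = 0.96) and Erc2 (r = 0.94). Casp4 was closest to Fam171a1 (r = 0.97) and Amd1 (r = 0.94), and Casp1, at the lowest tested level, to Rhebl1 (r = 0.90) and Gm16023 (r = 0.86).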

How the data were processed

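RNA sequencing measured transcripts in 8 libraries of 4 genotypes, 2 each. The authors deposited 1 normalized count per gene and library, a signal that is never negative and rarely whole. Per the series' design text, reads were aligned with STAR to mm10 with RefSeq genes. STAR 2.6.1a and Salmon are named per the submitters' processing notes. How reads were counted, by strand or not, and how counts were scaled is not stated. Of values up to 20 reads, 22.2% to 34.9% per library lay within 0.01 of a whole read, so whole reads were not recovered and no count model was run.

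From these values log2(normalized count + 1) was computed, and 13267 genes with a mean of at least 10 were tested with limma 3.58.1 in R 4.3.3 (trended prior, no covariate, two-sided), with 4 residual and 2.77 prior degrees of freedom, or 2 and 14.6 for 6 libraries. This scale understates the change of low genes. A call means a Benjamini-Hochberg adjusted p under 0.05, taken over all genes tested. With 2 libraries against 2, no exact permutation test goes below p = 0.333. Statements that libraries of different genotypes did not overlap describe the named gene only. The share of all genes with the same pattern was not counted. The script was tested on simulated data. Trimmed-mean (TMM) rescaling was computed from the deposited values. Exon lengths and GC contents came from GENCODE vM21, coordinates and promoters from RefSeq for GRCm38.p6. Named genes were all members, the called genes of each list (up to 5) and, for each tested member, the 2 genes with the highest Pearson correlation. Members, lists, the shared term and the fit of 6 libraries were chosen with earlier results of these data known. The 19 alternatives covered pseudocounts of 5 and 0.1, no minimum, a minimum mean of 50, scaling, prior, samples fitted, replicate block, the shared term and left-out libraries.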

Additional observations from a re-analysis of the deposited data

Results flagged for a closer look

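The change of Xaf1 with the loss of 1 Tfam allele differed between cells with and without Zbp1, by a test of the difference itself: -2.37 on the log2 scale (limma, adjusted p 0.021). The change was 2.78 with Zbp1, where both Tfam+/- libraries (309 and 295 normalized counts) stood above both WT libraries (48.4 and 38.5), and 0.41 without it. The call of the difference was lost in most fits with 1 library fewer, each of which leaves 1 library in a genotype. It was also lost with the replicate number as a block, a fit that called 0 of 13267 genes for the interaction. The leukocyte markers had a median interaction of -0.67, with 11 of 12 below 0 and 0 called by limma. At an unadjusted p under 0.05 were 7 of them and 2123 of all 13267 genes. The part of leukocytes in this result was not tested.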

How the results depend on the processing

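The rise of Xaf1 in Tfam+/- was called under all 19 alternatives. Of all values recomputed, 819 kept their direction and side of the threshold, 28 were newly past it, 9 lost it and 36 changed sign, none of the last being called before or after. Members called with the shared term were 3, 3, 4, 3 and 2 for Tfam+/-, Zbp1-/- and Tfam+/-Zbp1-/- (each against WT), for Tfam+/-Zbp1-/- against Tfam+/- and for the interaction, where 15.6%, 35.6%, 42.5%, 45.6% and 16.9% of all genes were called, and in the other 6 libraries 2, 3, 4, 3 and 2. Fitting only the genotypes compared gave 4 of 8 in Tfam+/-Zbp1-/- against WT, where that fit called 44.7% of all genes. The fits without 1 library leave 1 library in a genotype, and some of them called almost no gene of any kind. In some of them Xaf1 lost its calls in Tfam+/-Zbp1-/- against Tfam+/- and in the interaction. The labels do not say whether replicate numbers pair the samples. Deviations between replicates correlated at -0.70 to 0.06 between genotypes, but the pair of libraries that stood apart enters these values. They therefore cannot show whether samples were paired. The replicate block left the Xaf1 interaction at -2.37 (limma, adjusted p 0.12) and 0 members called there, where it also called 0 of all 13267 genes. A block with the numbers of Zbp1-/- and Tfam+/-Zbp1-/- crossed, chosen after seeing the data, gave 2 in Tfam+/-Zbp1-/- against Tfam+/-, where 7.45% of all genes were called. Values that changed sign were all uncalled. With trimmed-mean scaling they were Casp4 -0.051 and Casp12 -0.086 (Zbp1-/- against WT), Casp1 -0.025 (Tfam+/-Zbp1-/- against WT) and Gsdme -0.12 (against Tfam+/-). With the shared term and in the other 6 libraries they were Fas 0.043 and 0.030 (Tfam+/- against WT), Gsdme -0.084 and -0.13 (Tfam+/-Zbp1-/- against Tfam+/-), Casp12 -0.11 and -0.13, Fas -0.064 and -0.077, and Daxx 0.070 and 0.017 (against Zbp1-/-), and for the interaction Gsdme -0.099 and Fas -0.11 in both fits. Gsdme was 0.015 in Zbp1-/- against WT with the term only. Without 1 library, Zbp1-/- against WT ran from -0.30 to 0.64 for Casp1, -0.026 to 0.14 for Casp4 and -0.35 to 0.40 for Casp12. Tfam+/-Zbp1-/- against WT ran from -0.39 to 0.55 for Casp1 and -0.088 to 0.039 for Casp4. Tfam+/- against WT ran from -0.20 to 0.030 for Fas, and Tfam+/-Zbp1-/- against Tfam+/- from -0.13 to 0.14 for Gsdme. Against Zbp1-/- it ran from -0.28 to 0.11 for Casp1, -0.16 to 0.0015 for Casp4, -0.13 to 0.63 for Casp12, -0.077 to 0.20 for Fas and -0.38 to 0.017 for Daxx, and for the interaction from -0.061 to 0.21 for Gsdme. The cause was not tested. A minimum mean of 50 left Casp1 and Casp4 untested. Count models were not run. Depth is unknown, which limits Casp1 and Tnfsf10 most.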
